A study of Mus musculus with 4 samples.

Results

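The genes described here are the 46 S and G2/M genes of the cell cycle, of 32285 genes in the files. They were taken by symbol from a list of DNA replication and mitosis genes, and each symbol matched 1 row. The S genes are 20, from Mcm2 to Rfc2, and the G2/M genes 26, from Mki67 to Smc4. They were measured by single-cell RNA-sequencing (scRNA-seq) in myeloid-derived suppressor cells (MDSCs), which were grown from mouse bone marrow for 4 days with IL-6 and GM-CSF at 40 ng/ml each and then sorted as live CD11b+ cells. There were 4 libraries, 1 per group, and a library here is the set of cells given to 1 sample. Values by group are given for the 2 from wild type cells, without isoproterenol (WT) and with 10 µM of this β-adrenergic agonist (WT+ISO), and all 4 libraries enter the clusters and the values pooled over them. ISO was in the medium from the start of culture and was renewed every day. The mice were young adults on the C57BL/6 background. The study's methods name mice of both sexes, whereas its reporting summary names female mice only. Xist, a transcript of female cells, was found in 71.0% of WT cells and 76.7% of WT+ISO cells. The Y-linked Ddx3y was found in 0.317% and 0.309%, so both libraries read as female. The number of mice behind each library is not given in the sources used here. Each group is 1 library, so there are no replicates, no test was made and no p-value is given. The 95% intervals given with values cover counting error only and say nothing of the difference between cultures or mice. Those of ratios also take every UMI as a separate draw, although UMIs of the same cell go together.

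Cells copy their DNA in S phase and separate the copies in mitosis. The MCM helicase subunits are loaded onto origins with the help of Cdc6 and Cdt1 and open the DNA together with Cdc45 and GINS. Pcna, Rfc2 and Fen1 serve the moving fork, and Rrm1, Rrm2 and Tyms make deoxynucleotides. Entry into mitosis needs Cdk1 with its cyclins Ccna2, Ccnb1 and Ccnb2. Plk1 and the Aurora kinases act on the spindle, the Bub1 and Bub1b checkpoint holds the cell until chromosomes are attached, and Cdc20 and Ube2c then target the cyclins for destruction. In the neutrophil line, early granule-forming precursors divide, whereas band and segmented neutrophils have left the cycle.

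Cells needed 200 genes and no more than 10% of UMIs from mitochondrial genes, and 9303 of 9525 met this, 2210 in WT and 2264 in WT+ISO. UMIs are unique molecular identifiers, which count RNA molecules, and levels are given in CPM, counts per 1000000 UMIs. The kept cells held 24393687 UMIs in WT and 29400468 in WT+ISO, with medians of 8089 and 10252 per cell. No cell barcode was shared between libraries. The treatment field of all 4 samples names isoproterenol, which conflicts with the titles and the study's methods, and the titles were followed. The sorted surface marker CD11b (Itgam) had a UMI in 87.5% of WT cells and 88.4% of WT+ISO cells.

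Cells carried multiplexing tags, the sample tags bound to them before the suspensions were pooled for capture. In cells with mixed tags the library's own tag was not the highest or held under 80% of the tag UMIs. They made up 6.33% of WT, 2.21% of WT+ISO and 9.09% of the cells of all 4 libraries, so the pooled shares past the mitotic cut are given with and without them.

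Cells with transcripts of division were counted. Each cell was thinned to 2000 UMIs, which left out 710 shallower cells of 9303. A cell was taken as past the mitotic cut if at least 2 different genes of 21 were found in it, the G2/M genes without Tacc3, Cks1b, Cks2, Hmgb2 and Smc4. These were left out because they were taken to be expressed outside G2 and mitosis too. Whether they differ in this from the genes kept was not tested. A cell was taken as past the S cut if at least 2 of the 20 S genes were found. These cuts divide a range. Of the 8593 thinned cells, 1064 held 1 mitotic gene and 457 held 2, just outside and just inside the cut, while 4573 held none and 1785 held at least 5. Over the 4 libraries, 34.4% of cells (33.4 to 35.4) were past the mitotic cut. Without the cells with mixed tags it was 33.0%. Of the 2956 cells past the mitotic cut, 1847 were also past the S cut. The mitotic cut therefore does not mark cells in G2 and mitosis alone.

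The highest shares of such cells were in 4 of 11 clusters, made without the 46 genes and called here by their leading genes. In the Mpo and Elane cluster, which is like azurophil-granule neutrophil progenitors, 87.6% of cells (84.9 to 90.0) were past the mitotic cut and 83.7% past the S cut. In the Ncam1, Camp and Ngp cluster, which is like specific-granule neutrophil precursors and carries Cebpe, the shares were 86.1% (83.5 to 88.4) and 58.3%. The Matn2 and Btla cluster, which no marker list named, had 76.8% (73.8 to 79.6) and 62.3%. The Stfa3 and Stfa2 cluster, also without a name, had 54.8% (50.1 to 59.5) and 39.4%. Together these 4 clusters held 2164 of the 2956 cells past the mitotic cut, of which 704 were in the Ncam1, 635 in the Matn2, 580 in the Mpo and 245 in the Stfa3 cluster. Without the cells with mixed tags the 4 shares past the mitotic cut were 88.9%, 87.4%, 76.9% and 54.5%, in the order given.

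The mononuclear phagocytes and the clusters led by Gpnmb and by Il1b and Csf1 had lower shares. In the F13a1 and Fn1 cluster, which is like monocytes, 33.8% of cells (31.5 to 36.2) were past the mitotic cut, 531 in number and so more than in the Stfa3 cluster, and in the C1q cluster, which is like macrophages, 29.4% (24.7 to 34.5). The dendritic cell-like Ccr7 and Fscn1 cluster of 81 cells had 11.4% (5.34 to 20.5). The Gpnmb cluster, unnamed, had 4.80% (3.03 to 7.18). The Il1b and Csf1 cluster, which is mature neutrophil-like by its markers but poor in RNA, had 1.64% (0.938 to 2.64), with 6.44% (4.99 to 8.17) past the S cut. Of its 1416 cells, 438 were too shallow to be thinned, so these shares are those of its deeper cells. Without the cells with mixed tags the shares were 33.8% in the monocyte-like, 30.2% in the macrophage-like, 13.04% in the dendritic cell-like, 4.32% in the Gpnmb and 1.70% in the Il1b and Csf1 cluster.

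In the Retnlg and Mmp9 cluster, which is like mature neutrophils, 5 of the thinned cells were past the mitotic cut, or 0.321% (0.104 to 0.747), and 0.203% without the cells with mixed tags. Mature neutrophils do not divide, so this share is read as the background of the method, with 1.48% as that of the S cut. The other mature neutrophil-like cluster, led by Il1b and Csf1, lay above both values, at the shares given above. The median depth was 4622 UMIs in the Retnlg and Mmp9 cluster and 23202 in the Mpo and Elane cluster before thinning to the same 2000. When the cell cycle genes were kept in the clustering, the clusters shifted, and their highest share was 95.6%, in a cluster of 833 thinned cells. The Stfa3-led cluster then had 17.6%. The lowest was 0.563%.

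**Figure D1:**
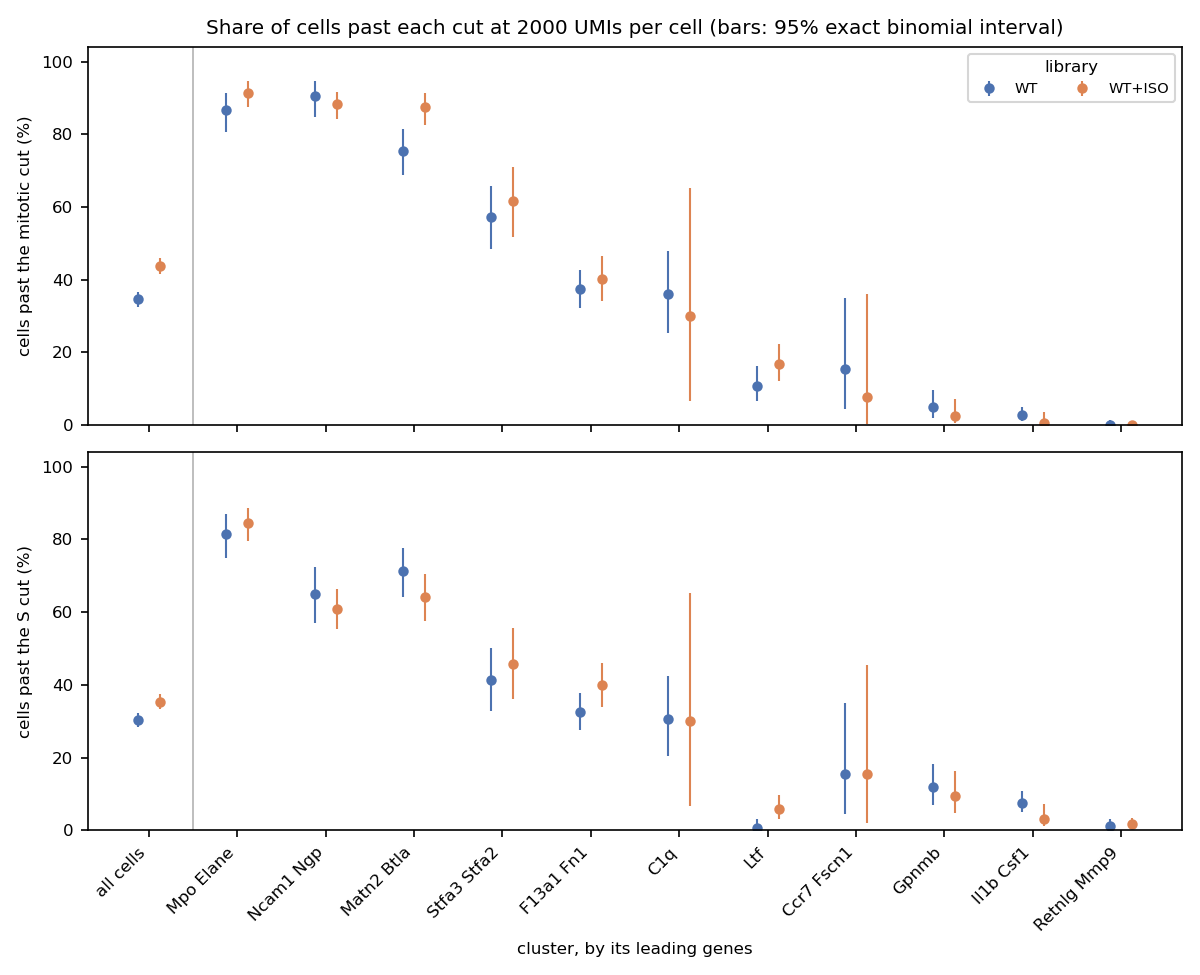
The y axes give the percent of cells past the mitotic cut (top) and the S cut (bottom) at 2000 UMIs per cell, and the x axis gives all cells and then the 11 clusters. Points are WT and WT+ISO and bars are exact binomial 95% intervals. In the top panel the Mpo and Elane cluster stands at 86.6% in WT and 91.5% in WT+ISO and the Retnlg and Mmp9 cluster at 0 in both.

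All 20 S genes had their highest level in the Mpo and Elane cluster. Levels are CPM over the cells of a cluster with all libraries summed. Summed over the 20, the level was 2026 CPM there, 1633 CPM in the Matn2 cluster, 1356 CPM in the Ncam1 cluster and 842 CPM in the monocyte-like cluster. It was 122 CPM in the mature neutrophil-like Retnlg cluster, where 17 of the 20 had their lowest level. Rrm2, the small subunit of ribonucleotide reductase, was at 282 CPM in the Mpo cluster and 2.58 CPM in the Retnlg cluster. Mcm5, a helicase subunit, was at 126 and 2.70 CPM in the same clusters, and Tyms, which makes thymidylate, at 121 and 1.72 CPM.

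Rfc2 and Slbp were spread most widely among the S genes. Rfc2, a subunit of the clamp loader, was at 123 CPM in the Mpo cluster and still at 48.5 CPM in the Retnlg cluster. Slbp, which binds histone mRNA, was at 172 and 33.5 CPM. Pcna, the sliding clamp, was at 166 and 10.8 CPM, with 41.3 CPM in the Il1b and Csf1 cluster.

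Most G2/M genes had their highest level in another cluster than the S genes. Of the 26, 16 were highest in the Ncam1, Camp and Ngp cluster, 8 in the Mpo cluster and 2 (Bub1 and Bub1b) in the Matn2 cluster. The 26 summed to 8345 CPM in the Ncam1 cluster, 6475 CPM in the Mpo cluster and 686 CPM in the Retnlg cluster. Mki67, the proliferation antigen, was at 351 CPM in the Ncam1 cluster, 193 CPM in the Mpo cluster and 8.22 CPM in the Retnlg cluster. Top2a, which untangles DNA, was at 480.5, 309 and 5.40 CPM in this order. Nusap1, a spindle protein, showed the same with 238, 113 and 1.72 CPM. Cdk1, Ccnb1, Cdc20, Plk1, Aurka, Aurkb, Cks1b and Cks2 were highest in the Mpo cluster instead, as with 131 CPM for Cdc20 against 114 CPM in the Ncam1 cluster.

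The Ltf cluster, which is like specific-granule neutrophils, held mitotic transcripts with few S transcripts. Of its 847 thinned cells, 106 were past the mitotic cut (12.5%, 10.4 to 14.9) and 27 past the S cut (3.19%, 2.11 to 4.60), and 13 were past both. In the Mpo cluster 481 of the 580 cells past the mitotic cut were also past the S cut, and in the Ncam1 cluster 422 of 704. The 21 mitotic genes summed to 3.43 times the S genes in the Ltf cluster, 3.19 times in the Ncam1 cluster and 1.65 times in the Mpo cluster. Ube2c was at 107 CPM in the Ltf cluster, Mki67 at 46.9 CPM, and Rrm2 at 8.10 CPM.

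Hmgb2, a chromatin protein that bends DNA, was the most abundant of the 46 and was found in nearly all clusters at a high level. It was at 2874 CPM in the Ncam1 cluster, 1062 CPM in the Ltf cluster and 539 CPM in the Retnlg cluster, where it made up most of the 686 CPM of all 26 genes. A UMI of Hmgb2 was found in 82.5% of all cells, against 22.96% for Cdc20 and 35.3% for Mki67.

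**Figure D2:**
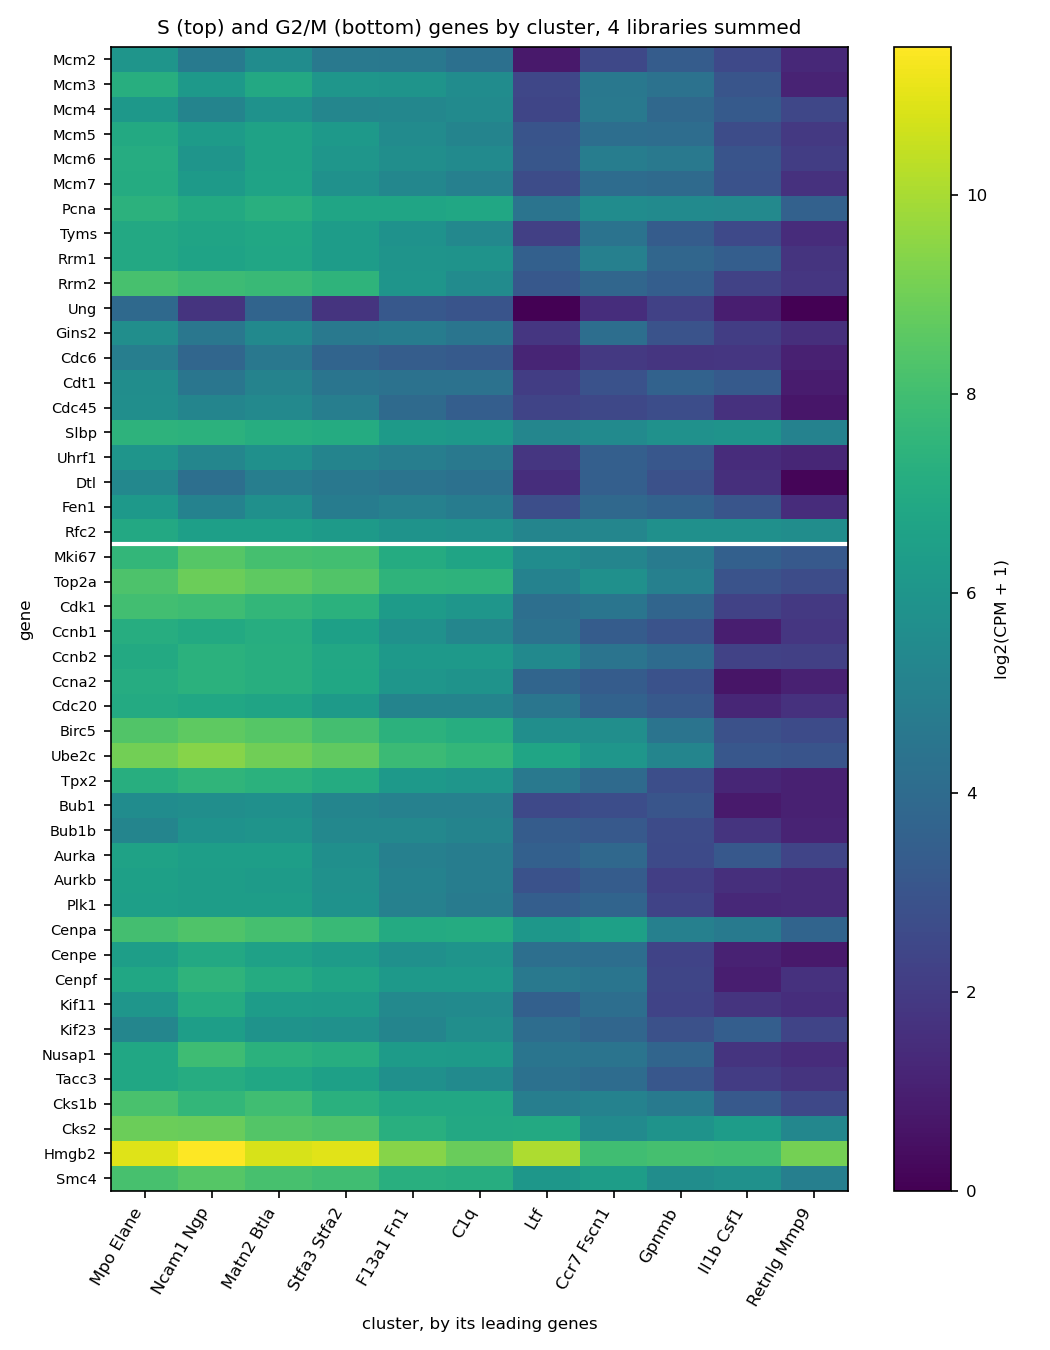
Each row is 1 of the 46 genes (20 S genes above the white line, 26 G2/M genes below it), each column 1 cluster, and the colour is log2(CPM + 1) with the 4 libraries summed. The S genes are brightest in the Mpo and Elane column, most G2/M genes in the Ncam1 and Ngp column, and Hmgb2 stays bright in the Ltf and Retnlg columns.

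The S and G2/M genes also differed in the letters of their promoters. RefSeq windows (GRCm38.p6, the build that the submitters' notes call mm10) from 250 bases before to 50 bases after the start were found for 17 of the 20 S genes and 22 of the 26 G2/M genes. Mcm4, Gins2, Rfc2, Ccna2, Tpx2, Aurkb and Smc4 were not matched. Letters were searched on both strands, and a gene with several windows was counted once. The CHR element (TTTGAA), to which the MuvB complexes bind, was in 15 of 22 G2/M windows (68.2%), 3 of 17 S windows (17.6%) and 20.2% of all 27025 genes with a window. The CCAAT box, bound by NF-Y, was in 19 of 22 (86.4%), 12 of 17 (70.6%) and 41.1%. Both together were in 15 of 22 G2/M windows and 7.97% of all. An E2F site (TTTCCCGC, TTTGGCGC, TTTCGCGC or TTTGCCGC, which can overlap on opposite strands) was in 8 of 17 S windows (47.1%), in 1 of 22 G2/M windows (Cdk1) and in 2.61% of all. A match of letters is not a measured binding site.

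Stretches that end before the gene are shown for 3 G2/M genes that hold CCAAT and CHR letters close to each other, with these letters (on either strand) in capitals. Cdc20, which activates the anaphase-promoting complex, is shown from chr4:118437344-118437473 (minus strand), Cdk1 from chr10:69352913-69353042 (minus strand) and Hmgb2 from chr8:57511713-57511842 (plus strand).
Cdc20: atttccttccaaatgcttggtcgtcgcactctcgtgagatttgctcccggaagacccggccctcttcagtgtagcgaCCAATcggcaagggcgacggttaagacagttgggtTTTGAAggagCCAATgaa
Cdk1: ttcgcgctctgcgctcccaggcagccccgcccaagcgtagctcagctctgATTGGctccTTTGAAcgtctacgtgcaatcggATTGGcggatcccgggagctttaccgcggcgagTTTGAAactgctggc
Hmgb2: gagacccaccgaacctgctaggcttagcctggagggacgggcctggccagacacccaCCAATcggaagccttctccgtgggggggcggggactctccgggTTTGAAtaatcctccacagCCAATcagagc

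The same is shown for 3 S genes with E2F letters in capitals. Mcm6 and Mcm5 each hold a pair that overlaps on opposite strands. Mcm6 is shown from chr1:128359706-128359835 (minus strand), Mcm5 from chr8:75109339-75109464 (plus strand) and Dtl, whose product marks Cdt1 for destruction in S phase, from chr1:191575545-191575644 (minus strand).
Mcm6: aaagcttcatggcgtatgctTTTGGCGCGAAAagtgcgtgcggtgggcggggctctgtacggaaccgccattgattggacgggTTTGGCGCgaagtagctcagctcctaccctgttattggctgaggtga
Mcm5: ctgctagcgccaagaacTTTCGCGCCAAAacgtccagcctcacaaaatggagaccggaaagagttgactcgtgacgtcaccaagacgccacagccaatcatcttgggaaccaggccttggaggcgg
Dtl: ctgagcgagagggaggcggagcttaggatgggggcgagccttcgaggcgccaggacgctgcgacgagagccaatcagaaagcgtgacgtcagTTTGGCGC

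WT+ISO had the higher share of cells past either cut. Past the mitotic cut were 34.6% of cells in WT (32.5 to 36.7) and 43.8% in WT+ISO (41.7 to 45.9). The shares past the S cut were 30.3% (28.3 to 32.3) and 35.3% (33.3 to 37.4). Too shallow to be counted were 181 cells of WT and 127 of WT+ISO. The intervals of the 2 libraries did not overlap in either cut, but they cover counting error only and cells are not replicates of a group. In the Retnlg and Mmp9 cluster, taken as the background, no cell of 282 in WT or of 439 in WT+ISO was past the mitotic cut, where 3 counts of the total would be 1.06% and 0.683% and the exact intervals reach 1.30% and 0.837%.

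Comparing WT+ISO with WT asks whether the agonist goes with more cycling transcripts in wild type cells. Of the 46 genes, 45 were higher in WT+ISO, by small amounts, with a median log2 ratio of 0.15, beside -0.02 over all 10771 genes with at least 100 UMIs in both libraries together. Genes were counted as different at a log2 ratio of 0.32 or more in size. By this rule 1 of the 46, Cdc20, was higher in WT+ISO and none lower, beside 5.51% of all genes higher and 13% lower. Summed, the S genes were at 1146 CPM in WT and 1270 CPM in WT+ISO, a log2 ratio of 0.15 (0.13 to 0.17). The G2/M genes were at 4330 and 4854 CPM, a log2 ratio of 0.16 (0.15 to 0.18). Without the cells with mixed tags the ratios of the sums were 0.18 and 0.20. By the same rule 3 of the 46 genes (Cdc20, Plk1 and Cdk1) were then higher, beside 6.34% of all genes, and 1 (Ung) lower, beside 15%.

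Cdc20 was at 64.3 CPM in WT and 81.1 CPM in WT+ISO. The log2 ratio in WT was 0.33 (0.24 to 0.43). Plk1, the kinase of mitotic entry, followed with 0.31 (0.20 to 0.42), from 47.6 to 59.1 CPM. Cdk1 was at 131 CPM in WT and 159.8 CPM in WT+ISO (0.29). Ccnb1, the mitotic cyclin, was at 84.4 and 97.7 CPM (0.21, 0.13 to 0.29). Bub1, Cenpf and Tpx2 differed least among the G2/M genes, with log2 ratios of 0.04, 0.08 and 0.10. Mki67 was at 171 and 187 CPM (0.13), Top2a at 240.2 and 267 CPM (0.15) and Hmgb2 at 1383 and 1498 CPM (0.12), with intervals above 0.

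Among the S genes, Uhrf1, which keeps DNA methylation at the fork, differed most, from 34.7 CPM in WT to 42.4 CPM in WT+ISO (log2 ratio 0.29, 0.16 to 0.42). Cdt1, the licensing factor, had 0.28 and Rrm2 had 0.26, from 134 to 160.5 CPM. Mcm5 was at 65.9 CPM in WT and 76.1 CPM in WT+ISO (0.21, 0.11 to 0.30), and Tyms at 72.1 and 83.6 CPM (0.21, 0.13 to 0.30). Pcna was at 112 CPM in WT and 116 CPM in WT+ISO (0.05, -0.02 to 0.12). Slbp had 0.04 and Mcm4 0.04, with intervals that cross 0. Ung, a uracil glycosylase at 8.61 and 7.28 CPM, was the 1 gene lower in WT+ISO (-0.24, -0.52 to 0.04).

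**Figure D3:**
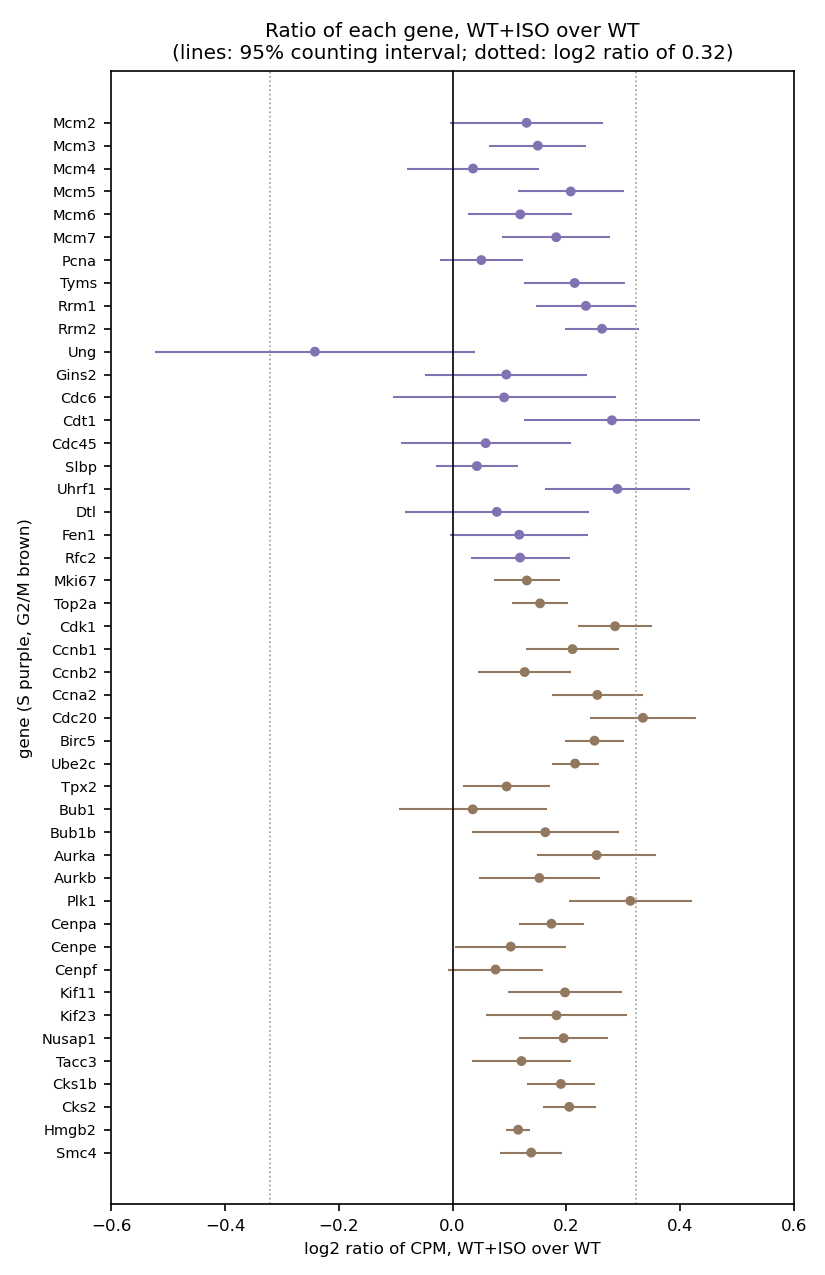
Each row is 1 of the 46 genes (S purple, G2/M brown), and the x axis is the log2 ratio of CPM, WT+ISO over WT, with 95% counting intervals as lines and ratios of 0.32 in size as dotted lines. Of the 46 genes 45 lie above 0, with Cdc20 (0.33) farthest to the right and Ung (-0.24) alone to the left of 0.

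The libraries also differed in how their cells were spread over the clusters, and most of the difference was gone at fixed cluster weights. The clusters themselves ran from 0.321% to 87.6% of cells past the mitotic cut. Fixed weights can therefore also take out a difference in cycling, and do not separate it from a difference in cell types. The Ncam1, Camp and Ngp cluster made up 7.10% of WT cells and 14.002% of WT+ISO cells, the Mpo and Elane cluster 7.87% and 11.5%, and the C1q cluster 3.44% and 0.442%. The Retnlg and Mmp9 cluster, taken as the background, also had a larger share in WT+ISO, 13.98% and 19.96%. Smaller in WT+ISO were the monocyte-like cluster, 15.5% and 11.6%, and the Il1b and Csf1 cluster, 20.05% and 10.4%. When the clusters were held at fixed weights, the log2 ratio was 0.02 for the S genes and -0.02 for the G2/M genes, 28 of the 46 genes were above 0, and none passed 0.32, beside 5.92% of all genes higher and 5.45% lower. With the cluster weights alone changing, the log2 ratios were 0.13 and 0.19. The difference in the share past the mitotic cut, 9.20 points over all cells, was 2.13 points at fixed weights, and that past the S cut 5.02 and 0.401 points. In sums over all cells, more cells of a type and more RNA of these genes per cell cannot be told apart. Within the Mpo cluster the S genes were at 2002 CPM in WT and 2009 CPM in WT+ISO, and the G2/M genes at 6718 and 6307 CPM. Markers differed beside these values. The 5 azurophil-granule progenitor markers summed to 4162 CPM in WT and 5440 CPM in WT+ISO, and the 5 macrophage markers to 140 and 58.3 CPM, with none at 0. The 6 mature neutrophil markers summed to 936 and 1155 CPM, and the 4 eosinophil markers to 53.0 and 3.03 CPM. Beyond the fixed weights, their part in the differences was not tested.

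Within clusters the ratios of the 2 lists between the libraries lay in both directions. Their intervals count UMIs, many of which can come from a few cells. They do not give the spread between the cells of a cluster. Over the 10 clusters other than the small dendritic cell-like one, the interval of the S genes lay above 0 in 3 and below 0 in 3, and that of the G2/M genes above 0 in 3 and below 0 in 4. The values at fixed weights are averages over these opposite signs. In the Ltf cluster (189 and 230 cells) the G2/M genes were at 1414 CPM in WT and 2386 CPM in WT+ISO, a log2 ratio of 0.76 (0.67 to 0.84), and the S genes at 135 and 220 CPM (0.70, 0.42 to 0.99). The share of its cells past the mitotic cut was 10.7% (6.55 to 16.2) in WT and 16.8% (12.2 to 22.3) in WT+ISO, with intervals that overlap. In the Matn2 cluster the share past the mitotic cut was 75.5% (68.7 to 81.5) and 87.5% (82.5 to 91.5), with intervals that do not overlap. Its share past the S cut was 71.3% (64.2 to 77.6) and 64.2% (57.7 to 70.4), with intervals that overlap. In the Stfa3 cluster the log2 ratios were 0.15 for the S genes and 0.11 for the G2/M genes. In the Gpnmb cluster the G2/M genes were lower in WT+ISO, at 812 and 436 CPM (-0.90, -1.07 to -0.72), and the S genes had a log2 ratio of -0.31. Few of its cells were past the mitotic cut, 7 of 144 in WT and 3 of 117 in WT+ISO. These shares were 4.86% (1.98 to 9.76) and 2.56% (0.532 to 7.31), with intervals that overlap. In the Il1b and Csf1 cluster both lists were lower, at 266 and 193 CPM for the S genes (-0.46) and 519 and 421 CPM for the G2/M genes (-0.30). In the C1q cluster, of which WT+ISO held 10 cells, the S genes had -0.76. Without the cells with mixed tags the Ltf cluster had log2 ratios of 0.70 for the G2/M genes and 0.65 for the S genes (168 and 226 cells). In the Ncam1 cluster the G2/M genes were lower in WT+ISO, at 8818 and 7935 CPM (-0.15, -0.18 to -0.13), as they were in the Mpo cluster (-0.09, -0.11 to -0.07), and in the monocyte-like cluster the S genes were higher, at 932 and 1051 CPM (0.17, 0.12 to 0.23).

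**Figure D4:**
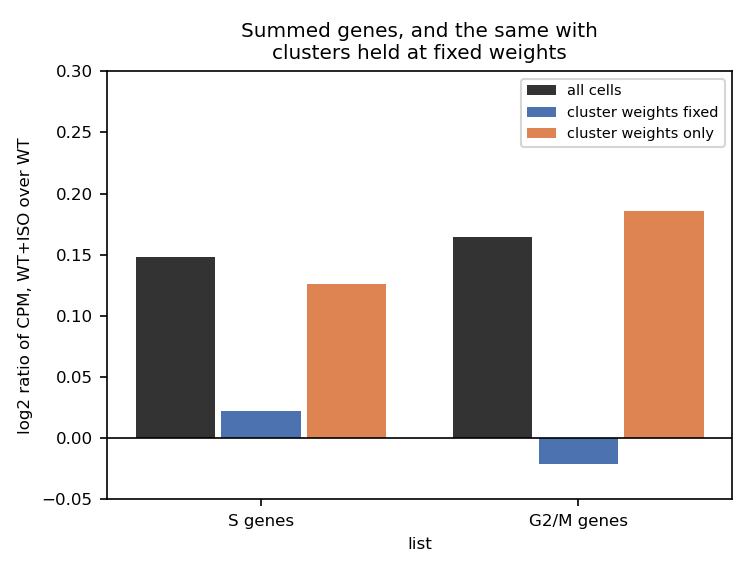
Bars give log2 ratios of summed CPM, WT+ISO over WT, for the S and G2/M genes, over all cells (dark), with cluster weights held fixed (blue) and with the cluster weights alone changing (orange). The dark bars stand at 0.15 and 0.16 and the blue bars at 0.02 and -0.02.

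Further genes of the same processes were mostly higher in WT+ISO too. Of 28 other replication genes, 25 were higher in WT+ISO and 1 passed 0.32, Mcm10, which recruits the polymerase (12.01 to 15.6 CPM, log2 ratio 0.38), beside 5.51% of all genes higher and 13% lower past 0.32. Dut, which clears dUTP and was the most abundant, was at 173 and 212 CPM (0.29), and Pole, the leading-strand polymerase, was lowest at -0.16. All 32 other mitosis genes were higher, but only 1 (3.13%) passed 0.32, beside the 5.51% of all genes. It was Foxm1, a transcription factor of G2 genes (11.8 to 15.03 CPM, 0.35). Smc2, a condensin subunit, was the most abundant in WT (136 to 147 CPM, 0.12). Of 21 further control genes, of G1 and of other steps of the cycle, 12 were higher. Past 0.32, 1 was higher and 1 lower (4.76% each), beside 5.51% and 13% of all genes. Ccnd3, the D-type cyclin with the highest level, was at 349 CPM in WT and 373 CPM in WT+ISO, and Cdc25a, a phosphatase of S entry, at 26.4 and 33.8 CPM (0.36). Ccnd1 was lower, at 8.53 and 4.63 CPM (-0.88). Its level was 71.5 CPM in the C1q cluster, 20.5 CPM in the monocyte-like cluster and under 4 CPM in all clusters but these and the dendritic cell-like cluster (39.9 CPM), and its part in the shift of cluster sizes was not tested.

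Genes that hold the cycle or mark its exit differed in both directions. The 14 of this list summed to 852 CPM in WT and 721 CPM in WT+ISO, a log2 ratio of -0.24 (-0.27 to -0.21), and of the 11 with at least 100 UMIs 2 were lower and 1 higher past 0.32, beside the 13% lower and 5.51% higher of all genes. Over these 11 genes the median log2 ratio was -0.06, and the intervals of 3 lay above 0 and of 3 below. Btg1, an antiproliferative gene and the most abundant of the list, was at 241 CPM in WT and 140.3 CPM in WT+ISO (-0.78), a larger difference in CPM than that of any other gene of the list. Its relative Btg2 was at 72.6 and 52.0 CPM (-0.48). Cdkn2c, which inhibits Cdk4 and Cdk6, was higher, at 8.16 and 10.5 CPM (0.37). The list was at 377 CPM in the Mpo cluster, 1872 CPM in the Il1b and Csf1 cluster and 2740 CPM in the dendritic cell-like cluster. The Il1b and Csf1 cluster made up 20.05% of WT cells and 10.4% of WT+ISO cells.

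Cells past the mitotic cut carried less of their own library's tag. The median was 836 UMIs in these cells and 1279 in the others in WT, and 995 and 1415 UMIs in WT+ISO. UMIs of other tags were similar, with medians of 46.5 to 65.5. Of the cells past the mitotic cut 11.3% had mixed tags in WT and 3.63% in WT+ISO, against 4.45% and 1.08% of the other cells. How cells were assigned to libraries from tags is not given in the sources used here, and how many dividing cells each library lost in that step was not tested.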

How the data were processed

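Live CD11b+ MDSCs were tagged, sorted, pooled and profiled on the 10X Genomics platform, and their counts come as 4 libraries, 1 per group. The deposited values are raw UMI counts of genes in cells, which the authors had not normalized. The file header names Cell Ranger 7.0.0 and the submitters' processing notes Cell Ranger 6.0.0, Seurat and mm10. How introns were counted and how barcodes were assigned to samples are not given in the sources used here. Groups came from the sample titles. All 4 libraries were filtered and clustered together, values by group are given for WT and WT+ISO, and the rest is not reported here.

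Cells below 200 genes or above 10% mitochondrial UMIs were left out. Scrublet (expected rate 6%) called 1 of 9303 cells (0.0107%) a doublet, so it has not worked. That cell was kept, and doublets may remain among cells with many UMIs. Cells past the mitotic cut had a median of 17430 UMIs before thinning and other cells 6527. Clusters came from the Leiden method (scanpy 1.11.5, resolution 0.8, 2000 variable genes without the cell cycle genes, 30 principal components, 15 neighbours, seed 0). They were named from marker lists (at least 3 markers in 10% of cells, mean log2 ratio of at least 1, and 1 marker among the 10 leading genes). UMIs were summed per library and given as CPM. Ratios have exact conditional binomial 95% intervals and shares exact Clopper-Pearson ones. Genes are counted as different at a log2 ratio of 0.32 in size with at least 100 UMIs in both libraries together. At fixed weights, each cluster has the mean share of the 2 libraries. The ratio intervals and the thinning were tested on simulated counts drawn independently of each other, which UMIs of the same cell are not. The other steps were not tested in this way. Genes shown by name are Pcna, Mcm5, Tyms, Rrm2, Mki67, Top2a, Ccnb1, Cdc20 and Hmgb2, and among the S and the G2/M genes the 3 highest and 3 lowest ratios with ISO in WT. Of the further lists up to 4 genes are named. Others named were chosen after their values were seen. The members, the lists and the rules were chosen with earlier results of these data known. The alternatives were other filters, scalings, weights, cuts, depths, seeds and clusterings, and removal of doublets or of cells with mixed tags, the last chosen after seeing the data.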

Additional observations from a re-analysis of the deposited data

How the results depend on the processing

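Of 72 values recomputed under an alternative, 34 lay inside the interval given for the main value (counts within 1.5 times), 6 of them because no cell of WT or WT+ISO was called a doublet, 37 moved and 1 reversed, and in each case the cause was not tested. The cuts and the thinning set the size of the shares, and 1 library per group sets what can be said of them. The reversed value was the log2 ratio of the G2/M genes in WT+ISO over WT, which was -0.022 with clusters at fixed weights, where the S genes had 0.022 and 0 genes passed a log2 ratio of 0.32. With median-of-ratios scaling 2 genes passed, and the S and G2/M ratios were 0.17 and 0.19. They were 0.19 and 0.21 with totals without the 20 most abundant genes, 0.24 and 0.32 with every cell weighted equally, 0.12 and 0.18 with every gene weighted equally, and 0.18 and 0.20 without cells with mixed tags, an alternative added after seeing the data. Without Hmgb2 the G2/M ratio was 0.19.

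Shares past the mitotic cut in WT and WT+ISO were 47.6% and 53.5% with 1 gene, 28.8% and 37.5% with 3 genes, 44.5% and 52.1% without thinning, 24.7% and 34.1% at 1000 UMIs, and 48.1% and 53.2% at 4000 UMIs. Shares past the S cut were 53.1% and 55.8% with 1 gene, 20.5% and 25.2% with 3 genes, 51.9% and 56.8% without thinning, 16.7% and 21.4% at 1000 UMIs, and 50.03% and 52.9% at 4000 UMIs. WT+ISO was above WT in both cuts in the 9 alternatives that could change a share, but the intervals of the S cut overlapped in 2 of them, with 1 gene (50.9 to 55.3 and 53.6 to 57.9) and at 4000 UMIs (47.6 to 52.5 and 50.6 to 55.1). The lowest cluster share past the mitotic cut was 2.58% at resolution 0.4 and 0% at resolution 1.2, and the highest was 95.6% with cell cycle genes kept. The monocyte-like name was not given at either resolution. At 0.4 the macrophage-like cluster, with Fn1 among its leading genes, had 33.2%. At 1.2 the F13a1-led cluster was unnamed and had 37.8%, and the macrophage-like cluster had 28.6%.

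No paired analysis was possible because there is a single library of every kind. A library was not left out for the same reason.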

Other observations

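The levels of the cycle inhibitors by cluster, chosen for description after their values were seen, did not follow the share of dividing cells in a single direction. Cdkn2d was highest, at 262 CPM, in the Ncam1, Camp and Ngp cluster, in which 86.1% of cells were past the mitotic cut, and was at 151 CPM in the Ltf cluster and 149 CPM in the Retnlg and Mmp9 cluster. Cdkn2c was also highest in the Ncam1 cluster, at 26.2 CPM, and at 0.491 CPM in the Retnlg cluster. Both encode inhibitors of Cdk4 and Cdk6. Ccnd3, a partner of these kinases, was highest there too, at 514 CPM, and at 488 CPM in the Retnlg cluster and 138 CPM in the dendritic cell-like cluster.

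Cdkn1a and Btg1 were both highest in the dendritic cell-like cluster. Cdkn1a, the inhibitor p21, was at 50.7 CPM in the Mpo and Elane cluster, 310 CPM in the monocyte-like cluster, 523 CPM in the Il1b and Csf1 cluster and 906 CPM in the dendritic cell-like cluster. Btg1 was at 29.0, 316, 733 and 1060 CPM in this order. In the mature neutrophil-like Retnlg cluster Btg1 was at 328 CPM and Cdkn1a at 101 CPM, and Cdkn1a was lowest in the Ltf cluster, at 42.7 CPM. These are levels over all libraries, with no test.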
